A study of Mus musculus with 24 samples.

Results

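The mutant effect in brain was set against the mutant effect in heart in the same 4 animals, to describe which genes and gene classes went opposite ways in the 2 organs. It was read from 16 of the 24 two-colour arrays of the series, the 8 brain and the 8 heart arrays. Male *Eya3*-/- mice of 13 weeks, here called W, X, Y and Z, gave both organs. They were homozygous for a gene trap insertion in an intron of *Eya3*, made in embryonic stem cells and bred to C57BL/6, and the trap was carried by all cells of the body. Each mouse and organ was hybridised on 2 arrays, once with the mutant RNA in Cy5 and once in Cy3, against pooled RNA of the same organ from wild-type males. The sources give 5 or 6 mice for the pool, and the range of animal numbers in the labels takes in mice W and X, so that its membership is uncertain. The deposited value of a spot is a log2 ratio, read here as mutant over pool, a direction that is likely but not stated in the sources used here. A value of 0 means an equal signal. The 2 arrays of a mouse and organ were averaged and the heart value was subtracted from the brain value within each mouse. Of 20794 cDNA clones on the array, 13948 had values on both arrays in at least 3 mice in each organ and were used, and 6846 were not. The clones used stood for 6727 genes with a symbol, and the values of a gene are the means of its clones.

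The Eya proteins are co-activators of transcription that also carry a phosphatase domain, and they are named for the fly gene *eyes absent*. They act beside homeodomain and Dach proteins in organ formation. Much of the mRNA of any adult cell encodes its common machinery, such as the ribosome that translates mRNA, the respiratory chain and ATP synthase that make ATP in mitochondria, the proteasome that degrades proteins, and the cytoskeleton. Brain and heart both depend heavily on mitochondria, while neurons add the synapse and cardiomyocytes add the sarcomere.

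Cytosolic ribosomal protein genes are described first below, and they share a feature of sequence that the choice of genes did not use. Their mRNAs are known in mammals for a 5′ terminal oligopyrimidine tract, a run of C and T at the start of the transcript. As a wider search for such letters, not limited to the first bases, the words CTTTC and CTTTT were searched on the sense strand from 15 bases before to 50 bases after each RefSeq start site (GRCm38.p6). The start stretches of the 4 ribosomal protein genes with the largest mean brain minus heart difference in size are given below in 30 bases each, all on the + strand, with the word found in capitals.
Rps21, chr2:180257399-180257428: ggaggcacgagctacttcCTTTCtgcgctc
Rpl10a, chr17:28328574-28328603: gcgctctgccttCTTTCcggtttccgcggc
Rpl28, chr7:4792955-4792984: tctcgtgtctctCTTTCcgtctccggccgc
Rpsa, chr9:120127776-120127805: cggccgcccgtcCTTTCgcgctacccgggg
Of 47 measured ribosomal protein genes with a start site in the table, 31 (66%) held one of the words, against 730 of 5457 (13.4%) of all genes used and 4302 of 27025 (15.9%) of all genes in the table. The share was 20% for translation factors (6 of 30), 12.2% for mitochondrial ribosomal proteins (6 of 49), 16% for proteasome subunits (4 of 25) and 12% for the respiratory chain and ATP synthase (6 of 50). *Rps28* and *Rps4x*, which also lay among the 10 ribosomal protein genes with the most negative differences, held neither word. The first word began 2 bases after the start site in *Rpl28*, 21 in *Rpl10a*, 22 in *Rpsa* and 38 in *Rps21*, so that only that of *Rpl28* lay near the first base. *Rps21* and *Rpl10a* have 2 start sites each, of which 1 held a word. A word is a match of letters, and no use of the site was measured.

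Single clones did not pass the test. Limma, fitted on the within-mouse differences (4 for 8651 clones, 3 for 4491 and 2 for 806) and adjusted over all clones, called 0 of 13948 clones (0%) at an adjusted p under 0.10, and the lowest adjusted p was 0.573. At an unadjusted p under 0.05 there were 1169 clones (8.38%), of which 508 (3.64%) were lower and 661 (4.74%) higher in brain than in heart. As a description, 352 clones (2.52%) lay below 0 in brain and above 0 in heart in every mouse with a value, and 219 (1.57%) lay the other way. In comparison, 117 clones (0.839%) were above 0 and 164 (1.18%) below 0 in both organs of every mouse. Taken over genes, 3703 of 6727 (55%) had a mean difference below 0, 2181 (32.4%) had a mean below 0 in brain and above 0 in heart, and 1530 (22.7%) had the reverse. The medians over all genes were -0.05 in brain, 0.03 in heart and -0.07 for the difference.

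The arrays limit these values. Each array lacked a value for 4.75% to 17.2% of its spots. The median of an array ranged from -0.131 to 0.126, and 63 to 223 of its values exceeded 10 in size. The 2 heart arrays of mouse Y lacked 16.3% and 17.2% of their values. They had the widest spread of the 16 arrays, with median absolute deviations of 0.673 and 0.656. Across clones, which are not independent replicates, the dye-swapped arrays of a mouse had a median Pearson's r of -0.03 in brain and -0.06 in heart. Turning the direction of the ratios would exchange lower and higher in every statement. The pool was 1 control RNA per organ in all comparisons. A deviation of the pool from other wild-type mice would therefore appear in all 4 mutants and cannot be told apart from an effect of the mutation. A ratio carries no level, so the organs could not be checked by their markers. Of 4 defining neuron markers 2 were on the array (4 clones), with 96.9% of values present in each organ. The figures were 89.1% in brain and 85.9% in heart for astrocyte markers, 100% in both for cardiomyocyte markers, and 87.6% and 88.5% for all clones. The single *Eya3* clone had values on 4 of 8 brain arrays and 6 of 8 heart arrays, with no mouse measured on both arrays in brain, and was not tested.

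Cytosolic ribosomal protein genes, which encode the structural proteins of the ribosome, lay below 0 in mutant brain and above 0 in mutant heart. Of 87 genes listed, 61 were on the array and 55 were used, and their median log2 ratio was -0.30 in brain, 0.14 in heart and -0.42 for brain minus heart. In brain 52 of the 55 genes had a mean below 0, and in heart 45 had a mean above 0. The difference was below 0 in 53 genes, and 44 had a mean below 0 in brain together with a mean above 0 in heart. Of their 80 clones, 11 lay opposite ways in this direction in every mouse (13.8%, against 2.52% of all clones and 2.84% of those with a symbol) and 0 in the other (against 1.57%). Over all clones this share varied with how closely dye-swapped arrays agreed (described below), and it was not compared among clones of equal agreement. All brain values of a gene lay below all its heart values in 22 of the 55 genes (40%), against 477 of all 6727 (7.09%), and all brain values lay above all heart values in 0 of them, against 246 of all 6727 (3.66%). Limma called 0 of the 80 clones, with 11 lower and 0 higher in brain at an unadjusted p under 0.05, where 3.64% of all clones were lower and 4.74% higher.

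By mouse, the median over these 55 genes in brain was -0.22 in W, -0.26 in X, -0.18 in Y and -0.45 in Z. In heart it was 0.21 in W, 0.18 in X, -0.06 in Y and 0.14 in Z, so that mouse Y alone lay below 0. The median difference was -0.52 in W, -0.55 in X, -0.16 in Y and -0.57 in Z. In brain the median was below 0 with either dye, at -0.24 with the mutant in Cy5 and -0.33 with the mutant in Cy3. The heart median was 0.23 with the mutant in Cy5 and -0.02 in Cy3, so that the value above 0 came from 1 dye orientation. Brain minus heart was -0.48 and -0.36, respectively.

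Both ribosomal subunits took part. The 22 genes of the small subunit had medians of -0.30 in brain and 0.18 in heart, and the 33 of the large subunit had -0.30 and 0.11. *Rpsa*, a small subunit protein that also serves as the laminin receptor, had brain log2 ratios of -0.34, -0.47, -0.49 and -0.70 in mice W to Z. Its heart ratios in the same order were 0.11, 0.21, 0.18 and 0.49. The organs did not overlap, and the difference was -0.75 ± 0.31 (SD, n = 4 mice). *Rpl28* had -0.58, -0.20, -0.40 and -0.80 in brain and 0.44, 0.07, 0.47 and 0.32 in heart, again without overlap, and a difference of -0.82 ± 0.38. *Rpl10a* had -0.69, -0.25, -0.51 and -0.05 in brain against 0.10, 0.86, 0.69 and 0.31 in heart, with a difference of -0.86 ± 0.38. The mean of *Rps21* over its 4 clones was -0.12, -0.57, -0.31 and -0.49 in brain and 0.11, -0.17, 0.12 and 2.76 in heart, so that its large mean came from mouse Z. The genes outside the common direction were named after their values were seen. *Rpl30* (0.54 ± 0.47 in brain and -0.08 ± 0.36 in heart) and *Rps16* (0.33 ± 0.11 and -0.20 ± 0.67, with 3 mice in heart) had means of the reverse signs, and *Rpl32* had means above 0 in both organs. The heart values of *Rpl30* were 0.17, -0.07, -0.59 and 0.16 in mice W to Z. Those of *Rps16* were 0.28 in W, 0.075 in X and -0.96 in Z, so that its heart sign came from mouse Z.

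**Figure D1:**
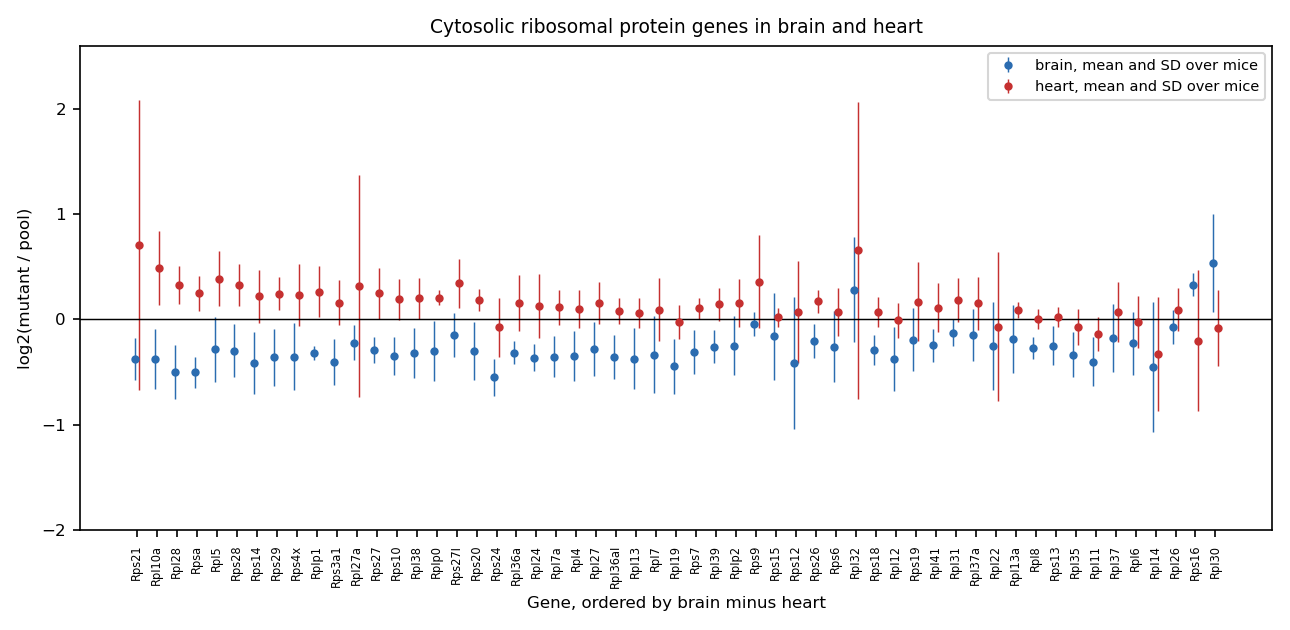
Log2 ratio of mutant over pool (vertical axis) of each of the 55 cytosolic ribosomal protein genes (horizontal axis, ordered by brain minus heart), as the mean over mice with the SD as bar, brain in blue and heart in red. Brain means lie below 0 in 52 genes and heart means above 0 in 45, with Rpl30 and Rps16 at the right end having means of the reverse signs, though their heart values lie on both sides of 0.

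Genes of oxidative phosphorylation showed the same pattern. Of 62 genes of the respiratory complexes and ATP synthase, 53 had a mean below 0 in brain, 56 a mean above 0 in heart and 51 both, with medians of -0.24 in brain, 0.14 in heart and -0.39 for the difference. Complex IV, cytochrome c oxidase, had the most negative median difference of its lists with -0.46 (11 genes, all with a difference below 0), from -0.28 in brain and 0.23 in heart. ATP synthase had -0.40 (15 genes), complex I, which oxidises NADH, had -0.40 (25 genes), and complexes II and III had -0.29 (11 genes). Limma called 0 of the 81 clones of these lists.

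Mouse Y stood apart in heart, where its 2 arrays had the widest spread of the 16. Whether the mouse or its arrays set these values was not tested. In complex I the heart median was 0.26 in W, 0.22 in X, -0.15 in Y and 0.18 in Z, while the brain median was -0.20, -0.21, -0.14 and -0.39. In complex IV the heart values were 0.25, 0.37, -0.18 and 0.27 and the brain values -0.15, -0.26, -0.33 and -0.41. Every brain median of these 2 lists was below 0, and the heart median of mouse Y lay within the range of its brain medians in each list. For ATP synthase the difference was -0.42 in W, -0.62 in X, 0.17 in Y and -0.66 in Z, so that mouse Y had the other sign.

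Among single genes of these complexes, *Ndufb11*, an accessory subunit of complex I, had -0.21, -0.89, -0.39 and -0.39 in brain and 0.50, 0.33, 0.02 and 0.17 in heart in mice W to Z. *Ndufs8*, an iron-sulphur subunit, had -0.89, -0.10, -0.11 and -0.42 in brain and 0.18, 0.16, 0.07 and 0.27 in heart. Neither gene's organs overlapped, and all brain values lay below all heart values in 12 of the 62 genes (19.4%, against 7.09% of all genes). *Cox7b*, a subunit of complex IV with 2 clones, had -0.20, -0.32, -1.21 and -0.73 in brain and 0.46, 0.45, -0.10 and 0.27 in heart, the heart value of mouse Y being below 0. *Sdhc*, a membrane anchor of complex II, had -0.45, -0.37, -0.36 and -0.42 in brain, a spread of 0.04 (SD), and -0.01, 0.42, -0.23 and 0.32 in heart. *Atp5c1*, the gamma subunit of ATP synthase, had a difference of -0.63 ± 0.42 (SD, n = 4 mice). *Atpif1*, an inhibitor of ATP synthase, ran the other way, with 0.36, 0.23, 0.81 and -0.11 in brain, -0.02, -1.82, -0.49 and -0.01 in heart and a difference of 1.01 ± 1.06. *Atp5h*, of the same list and with 2 clones, did so without overlap of the organs. It had 0.34, 0.53, 0.50 and 0.54 in brain and 0.10, 0.14, -0.30 and -0.14 in heart, a difference of 0.52 ± 0.26.

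**Figure D2:**
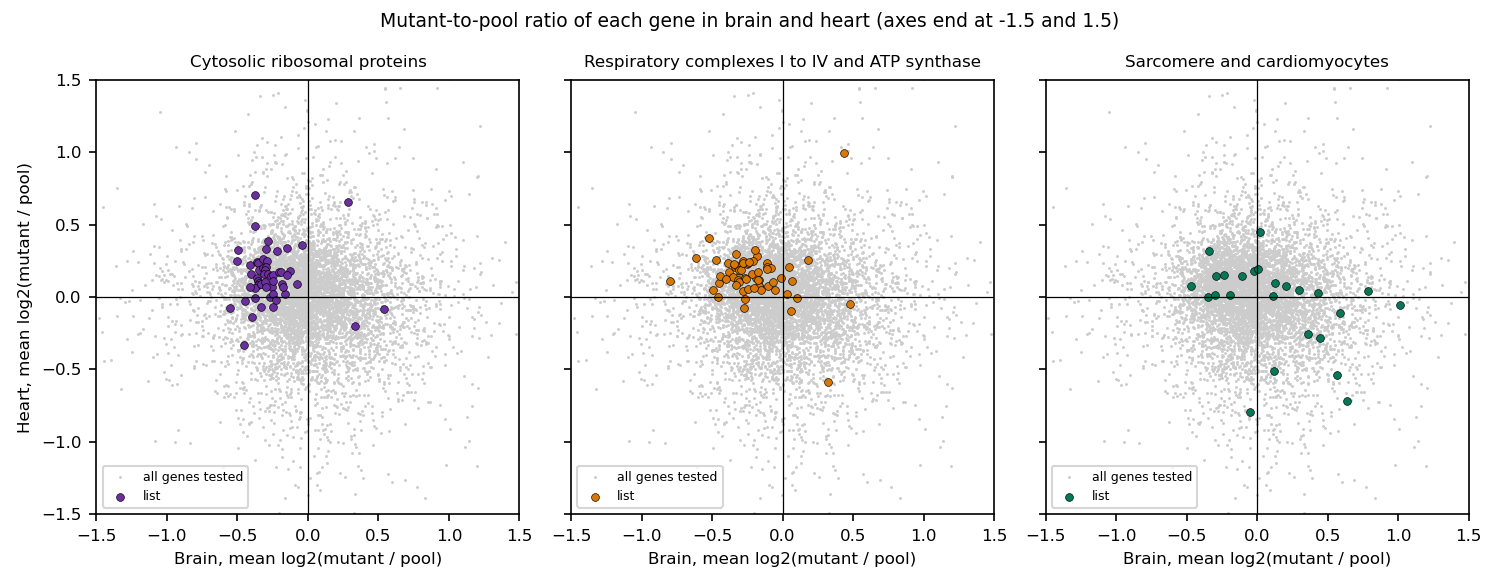
Mean log2 ratio of mutant over pool in brain (horizontal axis) and heart (vertical axis), 1 point per gene, with all 6727 genes in grey and the genes of 1 list coloured in each panel; 141 genes lie outside the axes. Ribosomal protein and oxidative phosphorylation genes gather in the upper left (44 of 55 and 51 of 62), whereas sarcomere and cardiomyocyte genes spread over both sides (9 of 25 in the upper left and 7 in the lower right).

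Other lists of common machinery had median differences below 0 as well. The vacuolar and sodium pump ATPases, which acidify vesicles and keep the ion gradients of the membrane, had a median difference of -0.38 (18 genes). The list of tubulins, cytoplasmic actins and keratins had -0.39 (25 genes), glycolysis and the citric acid cycle -0.31 (28 genes), splicing factors -0.28 (35 genes), translation initiation and elongation factors -0.27 (40 genes) and proteasome subunits -0.27 (29 genes). Of the 29 proteasome genes, 27 had a difference below 0, 16 had a mean below 0 in brain and above 0 in heart, and 0 had the reverse. Of the 28 genes of glycolysis and the citric acid cycle, 17 and 0 did. The mitochondrial ribosomal proteins, which translate only the mRNAs of the mitochondrial genome, had a median of -0.13 (54 genes, 18 with a mean below 0 in brain and above 0 in heart and 7 with the reverse), and its 18 genes are close to the share over all genes (32.4%). The splicing factors had a median difference of -0.46 with the mutant in Cy5 and -0.05 in Cy3. Whether any list differs from another was not tested.

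All brain values of a gene lay below all its heart values in 5 of 18 pump ATPases (27.8%) and 9 of 40 translation factors (22.5%). The same held for 6 of 25 tubulins, actins and keratins (24%) and 5 of 35 splicing factors (14.3%). In glycolysis and the citric acid cycle it held for 4 of 28 (14.3%), and in the proteasome for 3 of 29 (10.3%). The share over all genes was 7.09%. Several single genes of these lists are given next. *Actr3*, a subunit of the Arp2/3 complex that nucleates actin branches, was measured by 2 clones, and both lay opposite ways in every mouse. Its mean over the clones was -0.38, -0.53, -0.24 and -0.56 in brain and 0.26, 0.32, 0.49 and 0.31 in heart, with a difference of -0.77 ± 0.11 (SD, n = 4 mice). The difference of *Actr3* thus had a narrow spread over the mice. *Atp6v1f* and *Atp6v1a*, subunits of the cytosolic part of the vacuolar proton pump, had differences of -0.55 ± 0.23 and -0.52 ± 0.26. *Prpf19*, a ubiquitin ligase of the spliceosome, had -0.41, -0.26, -0.48 and -0.75 in brain and 0.21, 0.08, 0.07 and 0.15 in heart. *Srsf3*, a splicing factor with 2 clones, had -0.11, -0.42, -0.14 and -0.52 against 0.34, 0.19, 0.13 and 0.36. *Eef1b2*, which recharges the elongation factor that brings tRNA to the ribosome, had -0.30, -0.35, -0.02 and -0.48 in brain and 0.42, 0.56, 0.15 and 0.41 in heart. *Eif4a2*, an RNA helicase of translation initiation, had the most negative difference among the translation factors, -0.94 ± 0.52, from -0.54 ± 0.19 in brain and 0.40 ± 0.38 in heart. *Psmb4*, a subunit of the proteasome core with 2 clones, had -0.36 ± 0.24 in brain and 0.15 ± 0.14 in heart. The organs of *Psmb1* (difference -0.51 ± 0.41) overlapped, with 0.03 in the brain of mouse W and -0.27 in the heart of mouse Y.

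Not every member followed. *Eif3i*, a subunit of an initiation factor, had 0.30 ± 0.34 in brain and -0.47 ± 0.62 in heart (SD, n = 4 mice). *Eef1g*, another subunit of the elongation machinery, had 0.94 ± 0.54 in brain and 0.30 ± 0.31 in heart, above 0 in every mouse of both organs. *Hk2*, a hexokinase that begins glycolysis, had 8.83 in the brain of mouse X against -0.88 to 1.05 in the other mice, so that its mean difference of 2.22 came from 1 mouse. *Krt16*, a keratin, had -0.52, -1.16, -0.91 and -1.82 in brain and -0.07, 0.28, -0.23 and -0.33 in heart. Its brain values all lay below its heart values, so that it followed in the difference, but its heart values lay on both sides of 0.

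**Figure D3:**
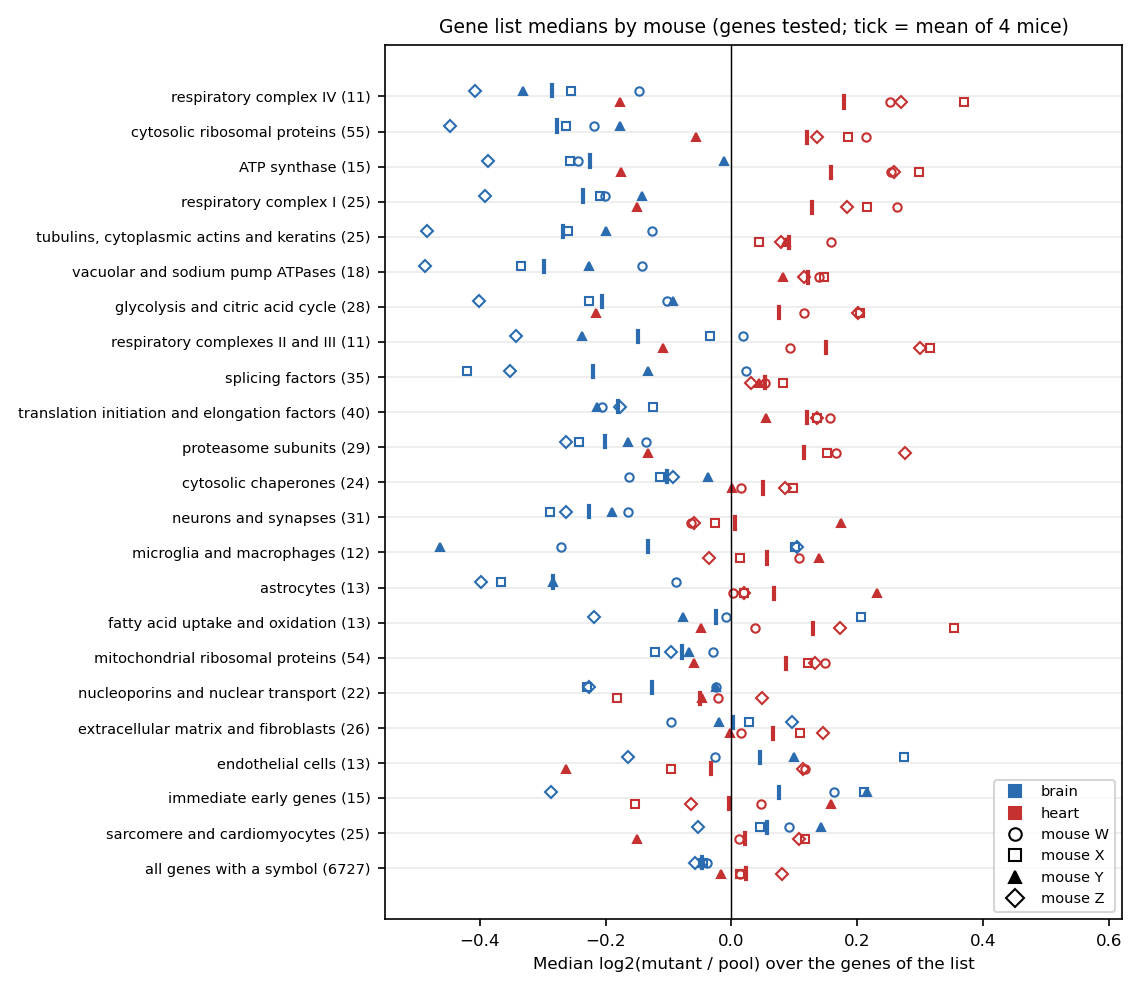
Median log2 ratio of mutant over pool (horizontal axis) over the genes of each list (vertical axis, number of genes in brackets) in each of 4 mice, brain in blue and heart in red, with ticks at the means of the mice; lists are ordered by brain minus heart over genes. Brain medians of the ribosomal protein list lie between -0.45 and -0.18, and its heart medians between -0.06 and 0.21 with mouse Y lowest.

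Cell type markers gave mixed values. In bulk tissue, fewer cells of a type and less RNA per cell cannot be told apart. A ratio carries no level, so the signal of neuron genes in heart, or of sarcomere genes in brain, could not be judged. Neuron markers had 96.9% of values present in heart and cardiomyocyte markers 100% in brain, so a value present does not show expression. For genes of neurons and synapses the median difference was -0.23, from -0.23 in brain and -0.05 in heart (31 genes, 27 below 0 in brain and 14 with a mean below 0 in brain and above 0 in heart). The brain medians were -0.16, -0.29, -0.19 and -0.26 in mice W to Z, all below 0. *Syt4*, a synaptotagmin of secretory vesicles, had -0.12, -0.20, -0.37 and -0.64 in brain and 0.16, 0.44, 0.57 and 0.73 in heart. *Gad1*, which makes GABA, ran the other way, with 0.69, 0.38, 0.40 and 0.48 in brain and -0.61, -0.11, 0.39 and -0.73 in heart, where only mouse Y lay above 0.

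Astrocyte genes had medians of -0.25 in brain, -0.01 in heart and -0.21 for the difference (13 genes). Of the 13 differences 10 were below 0, and 6 genes had a mean below 0 in brain and above 0 in heart. By mouse the median difference was -0.33, -0.38, -0.44 and -0.43 in W to Z. All brain values lay below all heart values in 3 genes (23.1%, against 7.09% of all genes) and above them in 1 (against 3.66%). Of the 20 clones, 3 lay below 0 in brain and above 0 in heart in every mouse (15%, against 2.52% of all clones), and 0 the other way (against 1.57%). The differences of *Aqp4* (0.06), *S100b* (0.08) and *Glul* (0.43) were above 0, and these were named after their values were seen. *Apoe*, the carrier of cholesterol that astrocytes and macrophages secrete, had -0.42, -0.40, -0.30 and -0.24 in brain and 0.73, 0.53, 0.40 and 0.83 in heart on its single clone. Both dyes gave these signs (-0.51 and -0.17 in brain, 0.56 and 0.68 in heart, with the mutant in Cy5 and Cy3, respectively), and the difference of -0.97 ± 0.20 (SD, n = 4 mice) had an adjusted p of 0.573 by limma. *Htra1*, a secreted protease with 2 clones, had -0.35 ± 0.23 in brain and 0.25 ± 0.18 in heart. *Sparc*, a matrix protein with 3 clones, had -0.56 ± 0.18 in brain and a heart mean of 0.62 that came from 2.40 in mouse Y.

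Sarcomere and cardiomyocyte genes did not share a direction. Their median was 0.12 in brain, 0.02 in heart and 0.11 for the difference (25 genes), with 12 differences below 0. All brain values of a gene lay above all its heart values in 6 of the 25 genes, against 3.66% of all genes. They lay below them in 4 (16%, against 7.09%). Of the 28 clones, 4 lay below 0 in brain and above 0 in heart in every mouse (14.3%, against 2.52% of all clones). The other way lay 2 clones, against 1.57% of all clones. The median difference was -0.16 on the arrays with the mutant in Cy5 and 0.16 in Cy3, so its sign depended on the dye. Of the genes that encode the contractile apparatus, *Tnnc1*, the calcium-binding troponin subunit of heart and slow muscle, lay above 0 in brain and below 0 in heart (values below). *Mb*, myoglobin, had 1.40, 0.21, 2.51 and -0.05 in brain and 0.15, 0.16, -0.22 and -0.30 in heart. *Mybpc3*, cardiac myosin-binding protein C, had 2.11, -0.45, 1.44 and 0.05 in brain against -0.02 to 0.09 in heart. For *Mb* and *Mybpc3* the spread over mice was wider in brain than in heart. *Tnnt3*, a troponin of fast muscle, had -0.43, -1.32, -0.48 and -0.96 in heart and -0.16 to 0.14 in brain. The reverse was seen for *Atp2a2*, the calcium pump of the sarcoplasmic reticulum, described below.

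Among the remaining lists, immediate early genes had a median difference of 0.04 (15 genes), endothelial genes 0.00 (13 genes), extracellular matrix and fibroblast genes -0.06 (26 genes), nucleoporins and nuclear transport -0.11 (22 genes), fatty acid uptake and oxidation -0.16 (13 genes), microglia and macrophage genes -0.21 (12 genes) and cytosolic chaperones -0.26 (24 genes, with -0.41 and 0.08 for the mutant in Cy5 and Cy3). *Jun*, a subunit of the AP-1 transcription factor with 2 clones, had -1.08, -1.01, -0.60 and -0.13 in heart and 0.16, -0.15, 0.48 and -0.29 in brain. *Itgam*, an integrin of microglia and myeloid cells, had -0.39, -0.22, -0.93 and -0.87 in brain and -0.06, 0.38, 0.41 and 0.02 in heart. Of the 12 microglial and macrophage genes, 8 had a difference below 0, while *Cd74* (0.57), *Fcer1g* (0.46) and *Aif1* (0.38, 3 mice), named after their values were seen, lay above 0. Of the 24 chaperone genes 16 had a difference below 0, and the largest in size, *Stip1* (1.20 ± 1.59, 3 mice), lay above 0. *Tcp1*, a subunit of the chaperonin that folds actin and tubulin, was measured by 3 clones and had -0.33, -0.47, -0.18 and -0.26 in brain and 0.21, 0.38, 0.14 and 0.38 in heart. *Cct8*, another subunit of that chaperonin, had -0.37, -0.38, -0.12 and -0.44 in brain and 0.16, 0.14, 0.05 and 0.02 in heart. The smaller lists were adipocytes (7 genes, median difference -0.33), choroid plexus (5 genes, 0.27), oligodendrocytes and myelin (9 genes, 0.06), erythroid cells (7 genes, 0.42) and the network of Eya and its partner transcription factors (3 genes, 1.55). The last value is that of *Pax6* (1.55 ± 1.31, 3 mice), between *Eya2* (2.67 ± 2.02, 3 mice) and *Sox2* (-0.16 ± 0.41). The median difference of that network was 0.13 with the mutant in Cy5 and 2.70 in Cy3.

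The direction of a clone moved with how closely its dye-swapped arrays agreed. For each clone the size of the gap between the 2 arrays of a mouse was taken as a median over mice and organs, and the clones were ordered by it and divided into 10 bins of nearly equal number. In the bin with the smallest gap, the median difference of brain and heart was -0.16. Of its 1396 clones, 93 were below 0 in brain and above 0 in heart in every mouse, against 12 the other way. In the bin with the largest gap, the median was 0.12 and the counts were 12 and 23 of 1394 clones. Several lists of common machinery had small gaps, with a median of 0.53 for ribosomal proteins and 0.41 for ATP synthase against 0.74 over all genes. Of the 80 ribosomal protein clones, the 35 in the 2 bins with the smallest gap had a median difference of -0.38, and the 45 others had -0.43. Over all clones the same split gave -0.14 and 0.01. For ATP synthase the values were -0.40 (13 clones) and -0.34 (10 clones). The part of the gap, and of the signal that may stand behind it, in the other lists was not tested.

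**Figure D4:**
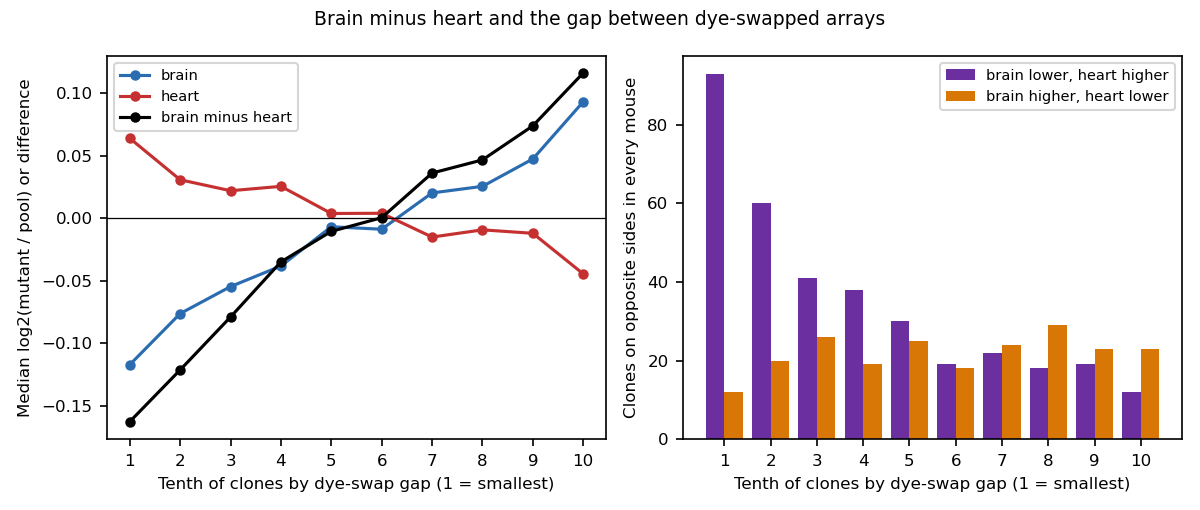
Clones in 10 bins by the gap between dye-swapped arrays (horizontal axes, 1 = smallest), with the median log2 ratio in brain and heart and their difference (left, log2 scale) and the number of clones on opposite sides of 0 in every mouse (right). The median difference runs from -0.16 in the first bin to 0.12 in the last, and the excess of clones lower in brain and higher in heart (93 against 12) lies in the first bins.

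The single clones with the widest opposite pattern came from several kinds of genes, and none passed limma (adjusted p = 0.573 for each of the clones that lay opposite ways in this and the next paragraph). *Gabarapl1*, a relative of yeast Atg8 that coats autophagosomes, was represented by 3 clones. Clone 11082 had -0.63, -0.56, -0.78 and -0.33 in brain and 1.08, 0.82, 2.93 and 0.19 in heart in mice W to Z, and clone 11079 had -1.44, -0.81, -0.39 and -0.50 against 2.15, 0.73, 0.06 and 0.28. Both clones lay opposite ways in every mouse. The third, clone 17247, had -0.38 in brain and 0.15 in heart, with heart values of 0.58, 0.17, -0.15 and -0.02. *Hnrnpll*, a regulator of alternative splicing best known from lymphocytes, had -0.44, -0.32, -0.34 and -0.9965 in brain and 0.53, 1.12, 1.12 and 0.94 in heart on clone 9361, a difference of -1.45 ± 0.39 (SD, n = 4 mice). In brain its value was -1.09 with the mutant in Cy5 and 0.04 in Cy3, and its other clone had means above 0 in both organs. *Svbp*, the partner of vasohibins, which remove the tyrosine at the end of tubulin, had a difference of -1.26 ± 0.80, with a heart value of -0.02 with the mutant in Cy5 and 1.20 in Cy3. *Csdc2*, a cold shock domain protein, had -1.14 ± 0.66 on clone 18939, whose brain value was 0.02 with the mutant in Cy5 and -1.27 in Cy3 and whose heart value was 1.19 and -0.15. Its other clone had 0.05 in brain and -0.06 in heart. *Sarnp*, an mRNA export protein, had -1.64 ± 2.01, with -3.31 in the brain of mouse Y.

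In the other direction stood *Tnnc1*, with 0.80, 0.96, 0.60 and 0.19 in brain and -0.62, -0.82, -1.18 and -0.27 in heart and a difference of 1.36 ± 0.62 (SD, n = 4 mice). The signs of *Tnnc1* were the same with either dye. *Tmod4*, a tropomodulin that caps actin filaments in muscle, had 1.01, 0.33, 0.65 and 0.95 in brain and -0.26, -0.99, -0.33 and -1.03 in heart. *Degs1*, which introduces the double bond of ceramide, had 0.40, 0.92, 1.18 and 0.76 in brain and -0.81, -1.83, -0.89 and -0.21 in heart on clone 7388. Its other clone, 1076, lay opposite ways in every mouse as well but with the reverse signs (-0.32 in brain and 0.14 in heart), so the gene has no settled direction. *Catsperd*, of the calcium channel of sperm, *Cdca3*, a gene of cell division, and *Ankle2*, of the nuclear envelope, had differences of 1.59 ± 0.65, 1.41 ± 0.66 and 1.47 ± 0.81. That of *Ankle2* rests on clone 10462, with a brain value of -0.0065 with the mutant in Cy5 and 1.30 in Cy3, and its other clone used, 19895, had -0.56 in brain and -0.28 in heart. The brain value of *Cdca3* in mouse X was 0.004, at the edge of the rule.

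**Figure D5:**
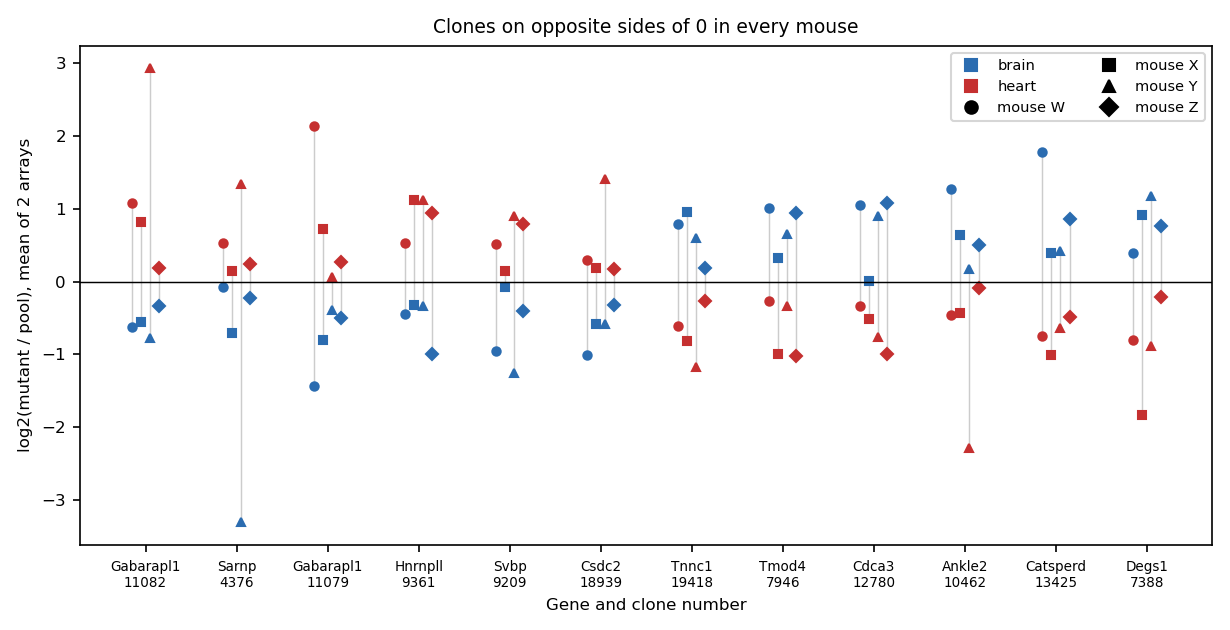
Log2 ratio of mutant over pool (vertical axis, mean of 2 arrays) in each of 4 mice for the 12 clones with a symbol that were chosen for the largest values on opposite sides of 0, brain in blue and heart in red, joined within each mouse. The clones were chosen by these values, so the gap between the organs is a description; single mice lie far out in Gabarapl1 clone 11082 (2.93), Sarnp (-3.31) and Ankle2 (-2.29).

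Genes with 2 clones in the same pattern are given next. They were named after their values were seen and for that trait, so they are no check of the pattern. The 247 clones with a symbol that lay below 0 in brain and above 0 in heart came from 239 genes. For the reverse pattern, 116 clones came from 114 genes. How many genes had clones that disagreed was not counted. Below 0 in brain and above 0 in heart in every mouse lay 2 of 2 clones of *Actr3*, *Atp2a2*, *Marchf6* and *Rbfox1*, 2 of 3 clones of *Gabarapl1*, *Ghitm* and *Hnrnpu*, and 2 of 4 clones of *Ube2l3*. The clones of *Atp2a2* had means of -0.29 and -0.39 in brain and 0.17 and 0.47 in heart, and the brain sign of each differed between the dyes. Those of *Rbfox1*, a splicing regulator shared by neurons and muscle, had -0.34 and -0.47 in brain and 0.48 and 0.70 in heart. In the reverse direction only *Depdc5* (2 of 3 clones) and *Nipbl* (2 of 5 clones) had more than 1 clone, and their clones disagreed widely, with brain means from -0.81 to 1.15 in *Nipbl*. Clones of 1 gene were hybridised on the same slides and are not replicates.

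Ranked by p, the lowest value for clones higher in brain belonged to *Gstm2*, a glutathione S-transferase. Its clone had 1.04, -0.89, 0.07 and -0.27 in brain and -2.36, -2.43, -2.12 and -2.21 in heart, a difference of 2.27 ± 0.80 (SD, n = 4 mice, adjusted p = 0.573 by limma). The heart values lay within a narrow range and the brain values on both sides of 0, so that it is not among the opposite clones. It was followed by clone 13519, without a symbol, which had 1.79, 0.85, 1.47 and 2.29 in brain and -0.48, -0.50, -0.37 and -0.92 in heart. The other clones of this rank were *Grip1*, *Dido1* and *Ccdc38*, with mean differences of 2.56, 1.33 and 1.29, of which that of *Grip1* came from 3 mice. Clone 1117 of *Dido1* had 0.13 in brain and 0.84 in heart, and clone 13469 of *Ccdc38* had -0.15 and -0.13, so neither gene had the same pattern on these clones. *Grip1* encodes a scaffold of glutamate receptors at synapses, and its other clone, 17771, had -0.39 in brain and 0.22 in heart (2 mice in heart, not used). Among clones lower in brain, *Hnrnpll* was followed by clone 14873 (-1.79), *Car3* (-2.04), *Cops8* (-2.05) and clone 14482 (-1.46). *Car3* is a carbonic anhydrase of muscle and fat, whose clones 19616 (0.30 in brain and 1.28 in heart) and 3475 (-0.18 and -0.68) differed from it. Further, *Cops8* is a subunit of the COP9 signalosome, whose other clone had -0.30 in brain and -0.11 in heart. Of these 5 clones, *Hnrnpll* and clone 14482 lay opposite ways in every mouse.

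Some genes lay on the same side in both organs. The 6 clones of *Hba-a1*, the alpha chain of haemoglobin, lay below 0 in every mouse of both organs. Their median was -0.58, -1.05, -0.81 and -1.59 in brain and -0.85, -0.19, -0.43 and -0.60 in heart in mice W to Z, so that the order of the mice differed between the organs. The difference was -0.47 ± 0.58 (SD, n = 4 mice), below the spread between mice. *Alas2*, which begins haem synthesis in red cells, had -0.06 ± 0.28 in brain and -0.50 ± 0.23 in heart. *Nup155*, a nucleoporin of the inner ring of the nuclear pore, had -0.26, -1.07, -0.65 and -1.27 in brain and -0.56, -0.31, -0.33 and -0.75 in heart, with a difference of -0.32 ± 0.45 and an adjusted p of 0.661 by limma. *Slc2a4*, the insulin-regulated glucose transporter of muscle and fat, lay above 0 in both organs on clone 5822, with 0.93 ± 0.66 in brain and 0.54 ± 0.08 in heart, but clone 6835 had -1.06 in brain (3 mice) and 0.09 in heart. Clone 9344 of *Ppm1f*, a protein phosphatase, lay above 0 in both (1.005 ± 1.10 and 0.95 ± 0.22), while clone 14741 had -0.0025 and -0.61. Clone 12839 of *Wwc2* lay above 0 in both (0.75 ± 0.20 and 1.02 ± 1.27), while clone 1171 had -0.33 and 0.24. None of these 3 genes was thus above 0 in both organs on every clone. Below 0 in both lay clone 3935 of *Ppil2* (-0.84 ± 0.90 and -1.01 ± 0.47) and clone 18600 of *Tmem50b* (-0.62 ± 0.34 and -0.86 ± 1.07). The other clone of each gene, with 2 mice in heart and not used, differed. Clone 13458 of *Ppil2* had 0.38 in brain and 0.24 in heart, and clone 20465 of *Tmem50b* had 0.98 and -2.26.

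Genes that the study names for brain or heart divided between these patterns, and since it chose them on the same arrays they are no independent evidence. *Calm3*, a calmodulin gene, had -0.19, -0.15, -0.08 and -0.68 in brain and 0.26, 0.49, 0.27 and 0.42 in heart on clone 15844 (0.09 in brain with the mutant in Cy3 and -0.08 in heart with the mutant in Cy5), while clones 16324 and 19960 had means below 0 in both organs. *Arpp19*, an inhibitor of protein phosphatase 2A, had -0.23, -0.49, -0.44 and -0.53 in brain and 0.37, 0.30, -0.04 and 0.46 in heart, a difference of -0.70 ± 0.26 (SD, n = 4 mice). *Atxn10* had -0.61 in brain and 0.11 in heart on clone 19986 but 0.46 and -0.34 on clone 6945. The clones of *Glul*, glutamine synthetase, disagreed in brain as well, with 1.17 and -0.31, against -0.02 and 0.01 in heart. Clone 19529 of *Ass1*, an enzyme of arginine synthesis, had 1.13 in brain and 0.11 in heart, and clone 18983 had -0.18 and 0.11. *Mt3*, a brain metallothionein, had -0.45 ± 0.14 in brain and -0.15 ± 0.39 in heart, and *Xiap*, an inhibitor of caspases, had -0.46 ± 0.22 and -0.08 ± 0.34. *Ankrd1*, a stress-responsive gene of heart muscle, had 0.12 ± 0.29 in brain (3 mice) and -0.51 ± 0.24 in heart. The heart value of *Ankrd1* was 0.23 with the mutant in Cy5 and -1.25 in Cy3, and the brain value of *Xiap* was -0.96 and 0.04, respectively. The 3 clones of *Syt1* and the 2 of *Ttr* each differed among themselves in size or sign.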

How the data were processed

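RNA of brain and heart of 4 mutant mice was compared with pooled wild-type RNA on two-colour cDNA arrays, with 2 arrays (dye swap) per mouse and organ. The authors scanned the slides, quantified them with GenePix and normalised them with MIDAS, and deposited log2 ratios per clone. The within-array method, slide and scan date are not given in the sources used here. The dye-swapped arrays had already been turned to 1 direction, as judged from values beyond 10 and from the *Hba-a1* clones.

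The 8 columns of muscle arrays were not used. The 2 arrays were averaged, heart was subtracted from brain within each mouse, and the differences were tested against 0 with limma 3.58.1 (R 4.3.3; lmFit, eBayes) with Benjamini-Hochberg adjustment over 13948 clones and an adjusted p under 0.10 as threshold. Python 3.11.15, pandas 2.3.3 and matplotlib 3.10.9 served for summaries. With 4 mice, an exact sign-flip test of a single value cannot go below a two-sided p of 0.125. The number of arrays limits the precision. The scripts were tested on simulated data.

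The platform annotation gave 1 symbol for 12771 of 20794 clones (9030 symbols) and none for 8023. Start sites came from RefSeq (GRCm38.p6), matched by symbol. The genes and the 28 lists were chosen with earlier results of these data known. Named clones were the 5 with the lowest p in each direction, the 6 in each direction with the largest smaller organ value among opposite clones, 3 in each direction lying the same way, up to 4 genes of a list with the largest mean difference in size among those with values in all 4 mice and the genes the study names, and other genes are marked as chosen after their values were seen.

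Mouse pairing comes from the animals, since both organs were taken from each. The correlation of deviations between the organs lay between -0.01 and 0.01 within a mouse. Alternatives were array centring and scaling, filters, single dyes, leaving out a mouse, the fit without the block, and clone handling.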

Additional observations from a re-analysis of the deposited data

Results flagged for a closer look

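Of 203 groups of 4 mice examined, 20 held a value far from the other 3, where chance gives about 1 in 20 groups. Among named clones these were clone 14482 in the brain of mouse W (-1.20) and the heart of mouse Y (1.40), the difference of *Sarnp* in mouse Y (-4.65), the heart of mouse Y for *Csdc2* (1.41) and *Ankle2* (-2.29), and the brain of mouse X for *Cdca3* (0.004). The others were the heart of mouse Z for *Ppm1f* (0.63), the heart and the difference of mouse W for *Wwc2* (2.92 and -2.37), the brain of mouse W and the heart of mouse Y for *Ppil2* (-2.18 and -1.71) and the brain of mouse W for *Syt1* clone 17277 (-2.07).

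Among list medians, the heart of mouse Y lay apart for ATP synthase (-0.18), astrocytes (0.23), mitochondrial ribosomal proteins (-0.0598) and neurons (0.17), and the difference of mouse Y for cytosolic ribosomal proteins (-0.16). Mouse Z lay apart in brain for immediate early genes (-0.29) and in the difference for nucleoporins (-0.49) and for all genes (-0.15). Over the 22 lists of 10 or more genes, the heart median was below 0 in 13 lists in mouse Y, 2 in W, 4 in X and 3 in Z.

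Further results were singled out because every mouse lay on one side of 0 in brain and on the other in heart. Lower in brain were *Gabarapl1* (differences of -1.83 and -1.59 on clones 11082 and 11079), *Sarnp* (-1.64), clone 14482 (-1.46), *Hnrnpll* (-1.45), *Svbp* (-1.26), *Csdc2* (-1.14) and *Calm3* (-0.63). Higher in brain were clone 13519 (2.17), *Degs1* (1.75), *Catsperd* (1.59), *Ankle2* (1.47), *Cdca3* (1.41), *Tmod4* (1.39), *Tnnc1* (1.36), *Dido1* (1.33) and *Ccdc38* (1.29). Limma's test of these differences did not pass for any of them (adjusted p = 0.573 for each). The list medians that lay so were those of the cytoskeleton list (-0.39), the vacuolar and sodium pump ATPases (-0.38), translation factors (-0.27), cytosolic chaperones (-0.26) and astrocytes (-0.21), and their differences were not tested. The last 2 lists lay at the edge of the rule in heart. Heart medians were 0.0025 in W, 0.0195 in X and 0.0205 in Z for astrocytes. For chaperones they were 0.01575 in W and 0.00075 in Y.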

How the results depend on the processing

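Limma called 0 clones under every alternative that was run. Without the replicate block, that is without pairing the organs by mouse, 0 clones were called, and 839 were lower in brain at an unadjusted p under 0.05 (508 with the pairing); *Ttr* clone 2267 then had 0.14. That lower count was 314 with the mutant in Cy3 only, 831 with the 8 array differences as samples and 282 with 1 value per symbol, which gave 269 for the higher count (661). Clones opposite in every mouse, lower in brain (352), numbered 191 with Cy5 only and 117 with Cy3 only. Those higher in brain (219) numbered 110 with values on all 16 arrays and 143 with Cy3 only. Leaving out 1 mouse gave 222 to 568 lower and 348 to 549 higher clones at an unadjusted p under 0.05. The opposite clones then numbered 401 to 779 and 215 to 378, with 3 mice to meet the rule whichever mouse was left out. The highest of each pair of opposite counts was without mouse Y.

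The 22 list medians kept within the spread between mice in all but 28 of 264 alternatives, and 18 changed sign. The ribosomal protein and oxidative phosphorylation lists were not among them. With Cy5 only, the median difference was -0.31 for astrocytes, -0.44 for neurons, -0.16 for sarcomere genes and -0.17 for translation factors. With Cy3 only, it was -0.13 for astrocytes, -0.17 for neurons, 0.00 (-0.003) for splicing factors, -0.18 (-0.185) for translation factors and -0.23 for the cytoskeleton list. With 1 array per mouse enough, it was -0.13 for astrocytes, -0.11 for chaperones, 0.0055 for microglia, -0.0599 for mitochondrial ribosomal proteins and -0.16 (-0.1645) for neurons. With values on all 16 arrays, it was -0.18 for extracellular matrix, neurons and sarcomere genes alike. It was -0.18 for neurons with scaled arrays and -0.34 for astrocytes with clones counted apart. Leaving out 1 mouse gave -0.36 to -0.10 for astrocytes (the extremes without W and X), -0.20 to 0.0861 for fatty acid oxidation (the highest without X), -0.22 to 0.17 for immediate early genes (-0.22 without Y), -0.51 to -0.12 for microglia (-0.51 without W), -0.22 to -0.17 for neurons and -0.37 to -0.23 for translation factors.

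Of 51 named clones, 12 had the other sign under at least 1 alternative, and none was called. With Cy5 only these were *Ppil2* (-0.65), *Ankrd1* (-0.22), *Syt1* clones 15791 (-0.10) and 17277 (-0.94), *Calm3* clones 16324 (-0.45) and 19960 (-0.16) and *Ass1* clone 18983 (0.22). With Cy3 only they were *Ppm1f* (-0.48), *Ttr* clone 2267 (0.27) and *Atxn10* clone 6945 (-0.21), the last also with 1 array per mouse enough (-0.16). Leaving out 1 mouse gave -0.43 to 0.36 for *Ppm1f*, -0.53 to 0.43 for *Wwc2*, -0.19 to 0.71 for *Ppil2*, -0.40 to 0.53 for *Tmem50b*, -0.34 to 0.65 for *Syt1* clone 17277 and -0.0368 to 0.15 for *Calm3* clone 19960. The cause of these changes was not tested.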
